A study of Mus musculus with 37 samples.

Results

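The genes that encode collagen chains and the lysyl oxidases that cross-link them were followed in mouse liver after partial hepatectomy, an operation after which the remaining liver regrows. They were taken from the table of genes by symbol, as protein-coding genes named as a collagen chain (Col, a type number, a and a chain number) or as Lox or Loxl1 to Loxl4. Of 55487 genes, 49 matched, 3 of them (Col9a1, Col19a1 and Col26a1) had no count in any library, and the remaining 46, made up of 41 chains and 5 lysyl oxidases, are described here. RNA sequencing had been done on 37 livers, and the stated subject of the study is the pace of regeneration in mice lacking Nox4, an NADPH oxidase that produces hydrogen peroxide. Wild-type (WT) mice gave 5 sham-operated livers and 3, 3, 4 and 3 livers at 6 h, 24 h, 48 h and 7 d after hepatectomy, and Nox4 knockout (KO) mice gave 5 sham-operated livers and 3, 4, 4 and 3 livers at those times. The hour of collection differed among the sham livers, which were kept as 1 group in each genotype. In WT mice replicate 1 was taken at 7 d, replicates 2 and 4 at 48 h, replicate 3 at 24 h and replicate 5 at 6 h. In KO mice replicate 1 was taken at 24 h, replicates 2 and 3 at 48 h, replicate 4 at 72 h and replicate 5 at 6 h. Both sexes were used, except that every liver taken 6 h after hepatectomy came from a male. Strain, age, the way the knockout was made and whether animals were littermates are not given in the sources used here.

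Collagens are secreted as triple helices of 3 chains. The fibrillar types (I, III, V) form the fibrils of the liver's connective tissue, type IV forms the network of basement membranes, FACIT collagens such as types XII and XIV sit on fibril surfaces, type XVIII is a proteoglycan of basement membranes that hepatocytes also make, and type XIII is a transmembrane collagen of adhesion sites. Lysyl oxidases oxidise lysines of collagen and elastin so that the fibrils become cross-linked. In the injured liver most fibrillar collagen is made by activated stellate cells and portal fibroblasts, while sinusoidal and other endothelial cells also make type IV chains. These are bulk tissue samples, in which fewer cells of a type and less RNA per cell cannot be told apart.

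Promoter sequences (RefSeq, GRCm38.p6) were at hand for 34 of the 46 genes, in 36 windows. Those of Col13a1 and Loxl4 are shown because each of these genes rose after hepatectomy and has a window in the table, which holds none for Col12a1. They are the 250 bases before the annotated start, chr10:61979109-61979358 and chr19:42612807-42613056, both on the minus strand and written 5′ to 3′ in the direction of transcription, with TATAAA and GGGCGG (the core of a TATA box and of a GC box, searched on both strands) in capitals.
Col13a1: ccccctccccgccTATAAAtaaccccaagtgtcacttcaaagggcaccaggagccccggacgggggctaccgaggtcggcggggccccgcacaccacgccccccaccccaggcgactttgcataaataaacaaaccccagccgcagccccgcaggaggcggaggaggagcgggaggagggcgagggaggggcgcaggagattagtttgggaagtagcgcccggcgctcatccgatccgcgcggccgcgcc
Loxl4: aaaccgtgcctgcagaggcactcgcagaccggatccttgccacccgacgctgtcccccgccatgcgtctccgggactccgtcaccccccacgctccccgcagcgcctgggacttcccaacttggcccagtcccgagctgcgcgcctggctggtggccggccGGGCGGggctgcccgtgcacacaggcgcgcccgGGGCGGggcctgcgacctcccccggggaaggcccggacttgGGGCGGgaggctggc
The Col13a1 window held 1 TATAAA and no GGGCGG, and the Loxl4 window held 3 GGGCGG and no TATAAA. Over all 32851 promoter windows of that length 12.4% held TATAAA and 32.7% held GGGCGG, against 5 and 23 of the 36 windows of the collagen and lysyl oxidase genes. The AP-1 motif TGANTCA was in 6.75% of all windows and in 1 of the 36, that of Col6a1, and CCAAT was in 33.8% of all windows and in 12 of the 36. A match is a description of the letters in the window.

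Total counts ranged from 26232544 to 48827025 per library. Nox4 itself lay between 0.778 and 23.5 CPM (counts relative to the library total, scaled by TMM, which adjusts for the make-up of each library) in WT livers and between 0 and 4.98 CPM in KO livers, and was lower in KO livers averaged over the stages (log2 change -2.82 ± 0.28 SE, edgeR quasi-likelihood test, adjusted p = 4.3e-08). The ranges of the genotypes overlapped when the sexes were pooled. Among females they did not, with 0.778 to 3.36 CPM in WT and 0 to 0.245 CPM in KO livers. Among males they overlapped in part, with 3.95 to 23.5 CPM in WT and 0.325 to 4.98 CPM in KO livers. Several livers stood apart from their groups. KO 24 h replicate 1 scored -23.8 on the first principal component against 63.3, 85.9 and 73.4 in the other 3 livers of its group, the 6 h sham livers scored 24.9 (WT) and 11.5 (KO) against -46.7 to -12.5 in the other sham livers, and WT 24 h replicate 3 had 8.93% of its counts from mitochondrial genes. Calls of collagen and lysyl oxidase genes that rest on these livers are given with and without them. Calls of the enzyme, receptor and cell marker lists come from the fit of all libraries alone. Hepatocyte transcripts (Alb, Apoa1, Ttr, Serpina1c and Cps1) summed to between 38996 and 140777 CPM in every library, the lowest being WT 24 h replicate 3.

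Col18a1 (chr10:77052178-77166548, GRCm38, minus strand) held most of the collagen message. It took 77.2% of all counts of the 46 genes, with 60.9% in the lowest and 86.7% in the highest library. Per kilobase of exon its mean level over all libraries was 110 CPM, followed by Col4a1 at 8.08, Col4a2 at 4.92, Col14a1 at 3.72, Col3a1 at 2.29, Col6a1 at 1.56 and Col1a1 at 1.51 CPM per kilobase. The chains of types I and III, best known from scar tissue, thus ranked well below the type XVIII chain in these livers. In all, 23 of the 46 genes had a mean of at least 1 CPM. The 14 that did not pass the filter on low counts had means of at most 0.0994 CPM. The 32 tested genes were 27 chains and all 5 lysyl oxidases.

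Levels of Col18a1 were 1254, 1288, 879, 956 and 1079 CPM in WT sham livers and 1099, 864, 622, 929 and 696 CPM in KO sham livers. At 48 h they were 962, 653, 542 and 679.7 CPM in WT and 604, 679, 561 and 340.2 CPM in KO livers. These ranges overlapped the sham ranges, and the difference did not pass the threshold (an adjusted p of 0.05 over all 15564 genes tested) in either genotype. The log2 changes at 48 h were -0.66 ± 0.28 (SE) in WT and -0.67 ± 0.28 in KO, with edgeR adjusted p = 0.14 and 0.24. WT 24 h replicate 3 gave the lowest level of all, 233 CPM, beside 981 and 780.4 CPM in the other livers of that group.

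At 6 h after hepatectomy the collagen genes that rose were Col12a1, Col4a1 and Col13a1 in both genotypes, with Col20a1 added in WT and Col4a2 in KO livers. Thus 4 of the 32 tested genes rose and none fell in WT livers, where 7.86% of all tested genes were called in either direction (4.16% rose and 3.7% fell). The same count, 4 of 32 rising and none falling, held in KO livers, where 6.62% of all genes were called (4.11% rose and 2.51% fell). The median log2 change of the 27 tested chains was -0.34 in WT and 0.05 in KO livers, beside medians of 0.02 and -0.0034 over all genes, so the genes that rose stood out from chains that were mostly lower or close to 0. The same 4 genes rose in WT livers when the 6 h sham livers were left out, and 4 genes fell (Col1a1, Col3a1, Col6a1 and Col6a2), in a fit that called 18.9% of all genes. That fit holds no sham liver of the same hour, so hour and operation cannot be told apart in it. The WT and KO log2 changes were then 4.30 and 2.12 for Col12a1 and 1.54 and 1.65 for Col13a1, and 2.02 in WT for Col20a1, all still called, whereas Col4a2 in KO livers (1.02, adjusted p = 0.055) was not. Among male libraries alone 1 of the WT and 2 of the KO calls were made, where 0.11% and 2.32% of all genes were called, and in fits of the compared groups alone 0 and 1, where 0.0073% and 1.91% were called.

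**Figure D1:**
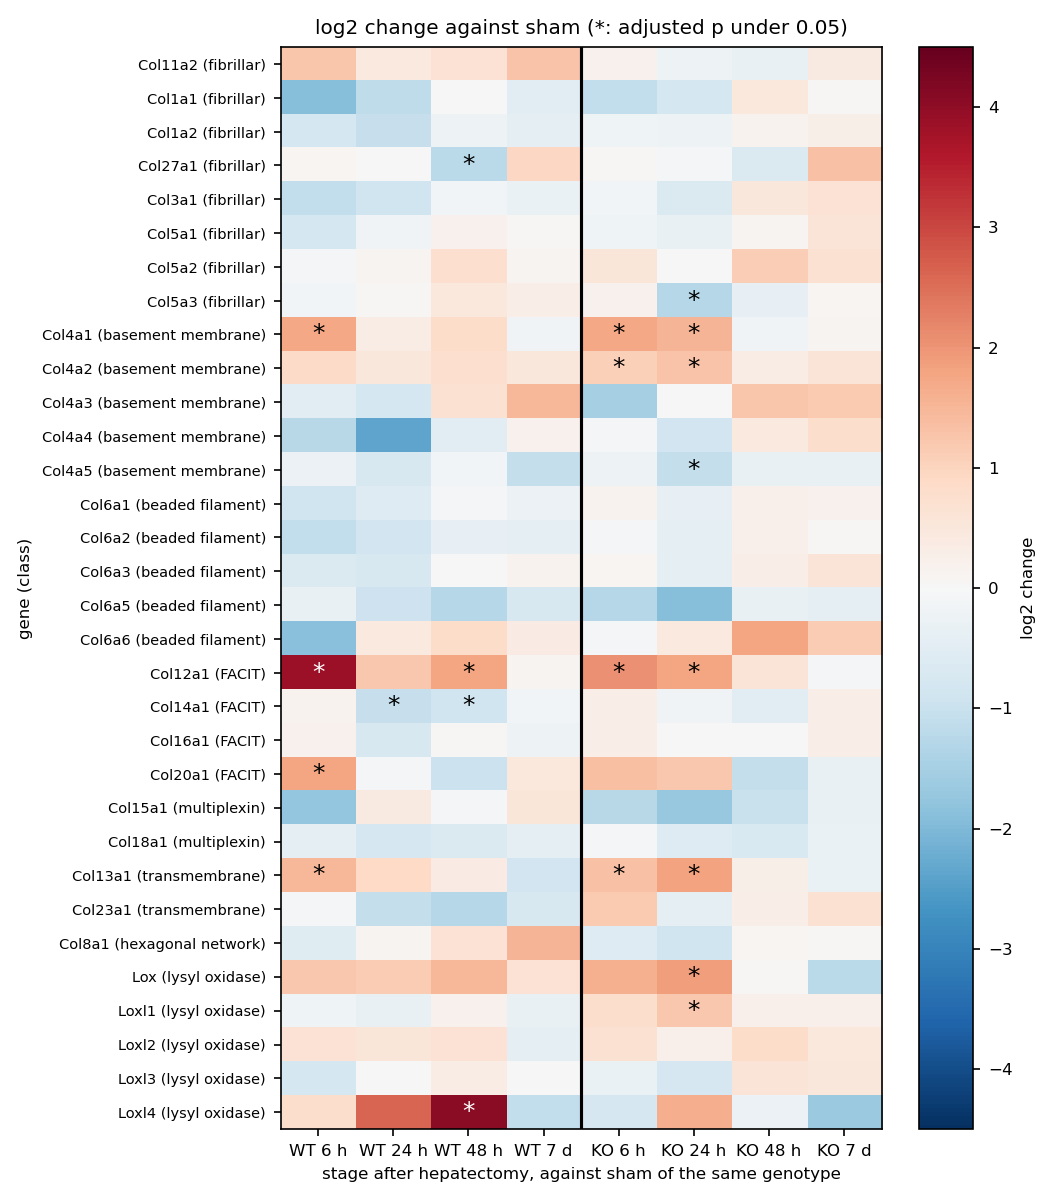
Log2 change of the 32 tested genes (rows, with their class) at each stage against sham livers of the same genotype (columns), with stars for an adjusted p under 0.05. The row of Col12a1 holds 4 stars and those of Col4a1 and Col13a1 hold 3 each, and the 7 d columns hold none.

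Col12a1 (chr9:79598991-79718831, minus strand), the chain of the FACIT collagen of type XII, showed the largest rise of the chains at 6 h. WT sham livers had 0.592, 0.892, 0.933, 0.577 and 1.90 CPM, and WT livers at 6 h had 8.03, 12.02 and 23.8 CPM. In KO mice sham livers had 1.07, 1.10, 1.20, 1.49 and 1.22 CPM, and KO livers at 6 h had 5.92, 6.47 and 3.30 CPM. Neither genotype's 6 h range overlapped its sham range, and the highest WT sham value came from the liver taken at 6 h. The rise was 14.3-fold in WT (log2 change 3.84 ± 0.44 SE, edgeR adjusted p = 9.6e-06) and 4.16-fold in KO livers (2.06 ± 0.42, adjusted p = 0.0029). In WT livers the call was lost only in the fit of the 6 h and sham groups alone (3.55, adjusted p = 0.072). The KO livers at 6 h lay wholly below the WT livers at 6 h, but the genotype difference at 6 h (-1.48 ± 0.46, adjusted p = 0.22) and the interaction (-1.78 ± 0.59, adjusted p = 0.92) did not pass the threshold.

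Later levels of Col12a1 in WT livers were 1.32, 2.47 and 3.002 CPM (24 h), then 2.48, 3.82, 5.59 and 1.41 CPM (48 h), then 1.31, 0.922 and 0.965 CPM (7 d). Those of KO livers were 2.46, 4.28, 5.68 and 4.18 CPM (24 h), then 2.57, 2.10, 1.79 and 0.899 CPM (48 h), then 1.41, 1.03 and 1.02 CPM (7 d). By 7 d both genotypes were back within the range of their sham livers or just below it. In KO livers Col12a1 was still raised at 24 h, with no overlap with sham livers (log2 change 1.77 ± 0.39 SE, edgeR adjusted p = 0.0013), and in WT livers at 48 h (1.79 ± 0.39, adjusted p = 0.0044). The 48 h call in WT was lost among males alone (adjusted p = 0.78) and in the fit of the compared groups alone (0.078). Changes at 24 h in WT (1.20 ± 0.41, adjusted p = 0.15) and at 48 h in KO livers (0.56 ± 0.39, adjusted p = 0.60) did not pass.

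**Figure D2:**
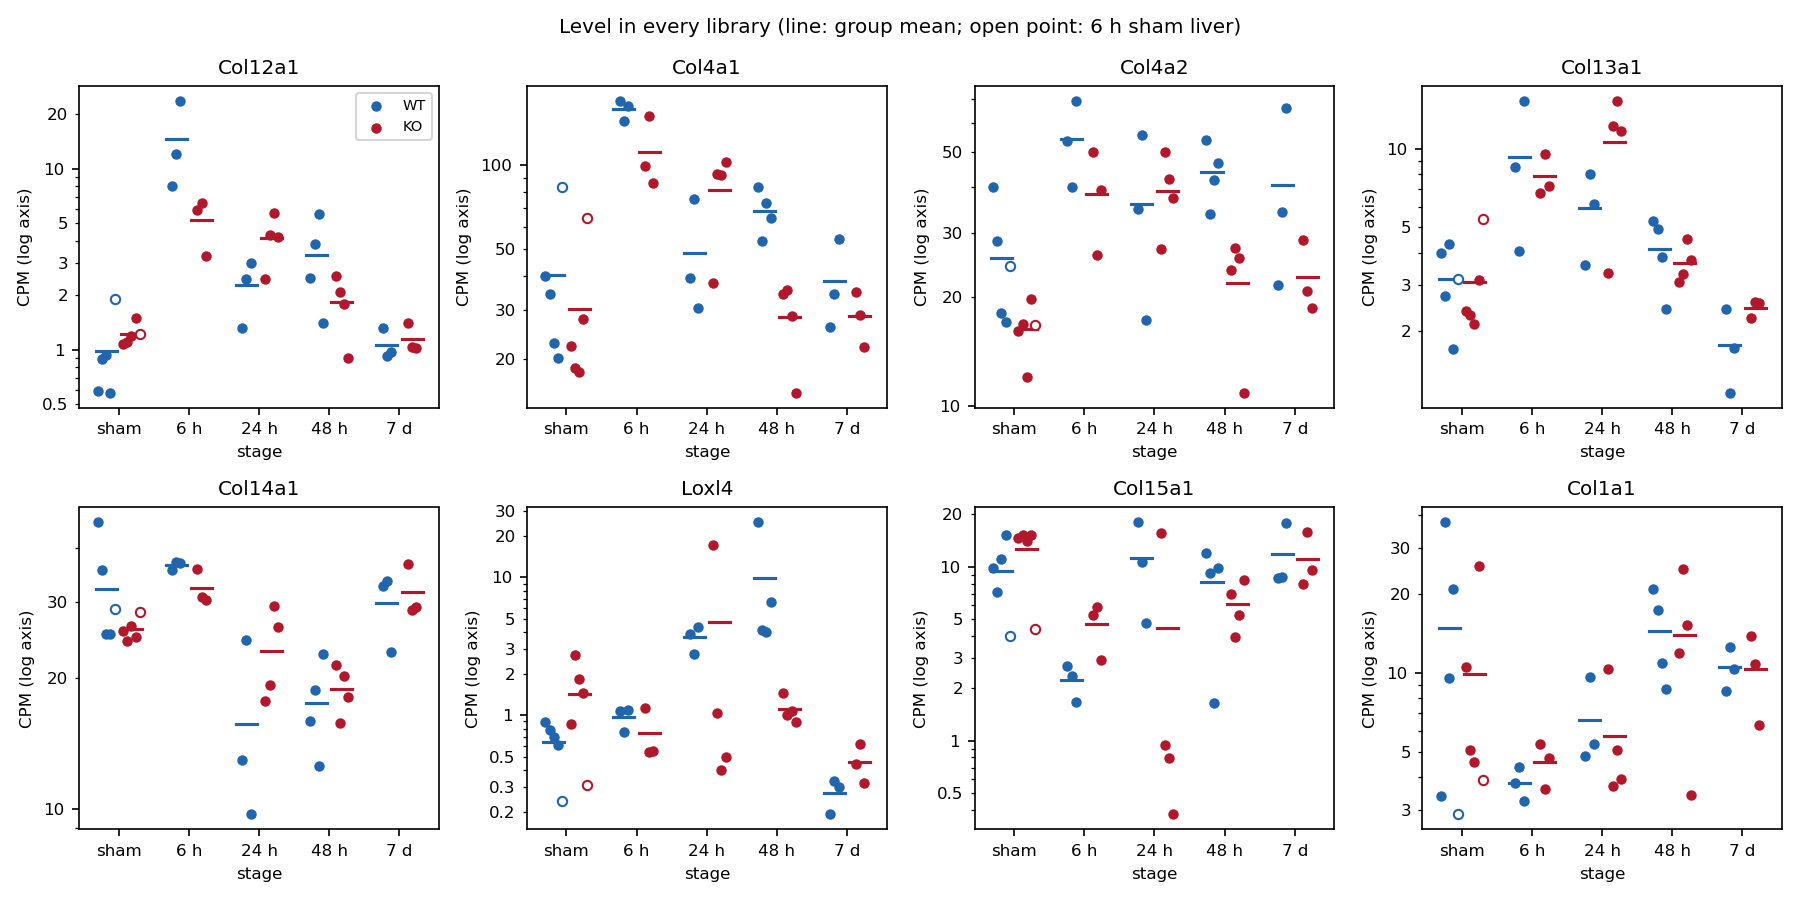
Level of 8 genes in every library in CPM on log axes, by stage, with WT in blue, KO in red, a line at each group mean and open points for the 6 h sham livers. Col12a1 peaks at 6 h in WT at 8.03 to 23.8 CPM, the 6 h sham livers are high for Col4a1, and 1 KO liver at 24 h lies apart for Col4a1, Loxl4 and Col15a1.

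Col4a1 (chr8:11198423-11312826, minus strand) and Col4a2 (chr8:11312805-11449287, plus strand) encode the ubiquitous type IV chains and are transcribed away from each other from starts whose annotated transcripts overlap by 22 bases. Col4a1 stood at 39.8, 34.4, 22.8, 20.3 and 83.8 CPM in WT sham livers and at 171, 145 and 164 CPM in WT livers at 6 h. In KO mice the sham values were 22.2, 18.6, 17.9, 27.8 and 64.9 CPM, and KO livers at 6 h had 99.7, 151 and 86.1 CPM. In each genotype the highest sham value was that of the liver taken 6 h after the sham operation, and all hepatectomy livers at 6 h lay above it. The rise was 3.34-fold in WT (log2 change 1.74 ± 0.38 SE, edgeR adjusted p = 0.0066) and 3.31-fold in KO livers (1.73 ± 0.37, adjusted p = 0.0050). Without the 6 h sham livers the log2 changes were 2.21 and 2.22. The WT call was lost without WT 6 h replicate 3 (adjusted p = 0.054), among males alone (1.36, adjusted p = 0.17) and in the compared groups alone (1.36, adjusted p = 0.15), and the KO call in the compared groups alone (1.54, adjusted p = 0.086).

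At 24 h Col4a1 levels were 39.2, 75.5 and 30.5 CPM in WT and 37.5, 93.3, 92.3 and 103 CPM in KO livers. The 3 high KO livers exceeded every sham liver, whereas KO 24 h replicate 1 lay inside the sham range, and the KO group was 2.92-fold above sham (log2 change 1.55 ± 0.35 SE, edgeR adjusted p = 0.0017). At 48 h the levels were 83.9, 53.4, 73.1 and 64.6 CPM in WT and 34.2, 35.5, 28.5 and 15.1 CPM in KO livers, with no overlap between the genotypes. This difference (-1.48 ± 0.38, adjusted p = 0.080) did not pass the threshold in edgeR and passed it in DESeq2 (-1.47, adjusted p = 0.011). Livers at 7 d had 26.1, 34.4 and 54.3 CPM in WT and 34.9, 28.9 and 22.2 CPM in KO, inside their sham ranges.

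Col4a2 had smaller log2 changes at 6 h than its partner, a difference that was not tested. WT sham livers had 40.1, 28.5, 18.03, 17.0 and 24.2 CPM and WT livers at 6 h had 53.7, 40.2 and 69.3 CPM. KO sham livers had 16.1, 16.8, 12.01, 19.7 and 16.7 CPM and KO livers at 6 h had 49.9, 26.1 and 39.3 CPM. The 6 h values were above all sham values in both genotypes, the WT groups being separated by a very small gap. The change passed in KO (2.10-fold, log2 change 1.07 ± 0.32 SE, edgeR adjusted p = 0.039) and not in WT livers (0.85 ± 0.33, adjusted p = 0.10). The KO call at 6 h was kept in 20 of 37 fits that each left out 1 library, and without KO 6 h replicate 1 its adjusted p was 0.24. At 24 h KO livers had 27.0, 50.01, 42.2 and 37.4 CPM, all above the KO sham livers (2.45-fold, log2 change 1.29 ± 0.29, adjusted p = 0.0017), and WT livers had 34.8, 55.9 and 17.3 CPM.

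The ratio of Col4a1 to Col4a2, per kilobase of exon, was high in all livers taken at 6 h. It was 0.881, 1.07, 1.12, 1.06 and 3.07 in WT sham livers and 1.23, 0.981, 1.32, 1.26 and 3.44 in KO sham livers, the last of each being the 6 h sham liver. At 6 h after hepatectomy it was 2.83, 3.20 and 2.10 in WT and 1.77, 5.12 and 1.94 in KO livers. Sham livers taken at 6 h therefore shared the high ratio of the hepatectomy livers of that hour. KO livers at 24 h gave 1.23, 1.65, 1.94 and 2.44, of which the highest values lay inside the 6 h range, and WT livers at 24 h gave 1.00, 1.20 and 1.56. All livers at 7 d lay between 0.730 and 1.24. With 1 sham liver per genotype at 6 h, no test of hour against operation was made, and the shared bases are 22 of 7464 exon bases of Col4a1 and of 6619 of Col4a2. The Col1a1 to Col1a2 ratio was 0.735 to 1.10 at 6 h after hepatectomy and 0.838 and 0.951 in the 6 h sham livers. It was also low in WT sham replicate 1 (0.563) and in KO 24 h replicates 2 to 4 (1.02, 0.964 and 0.868), and lay between 1.13 and 3.19 in all other livers.

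**Figure D3:**
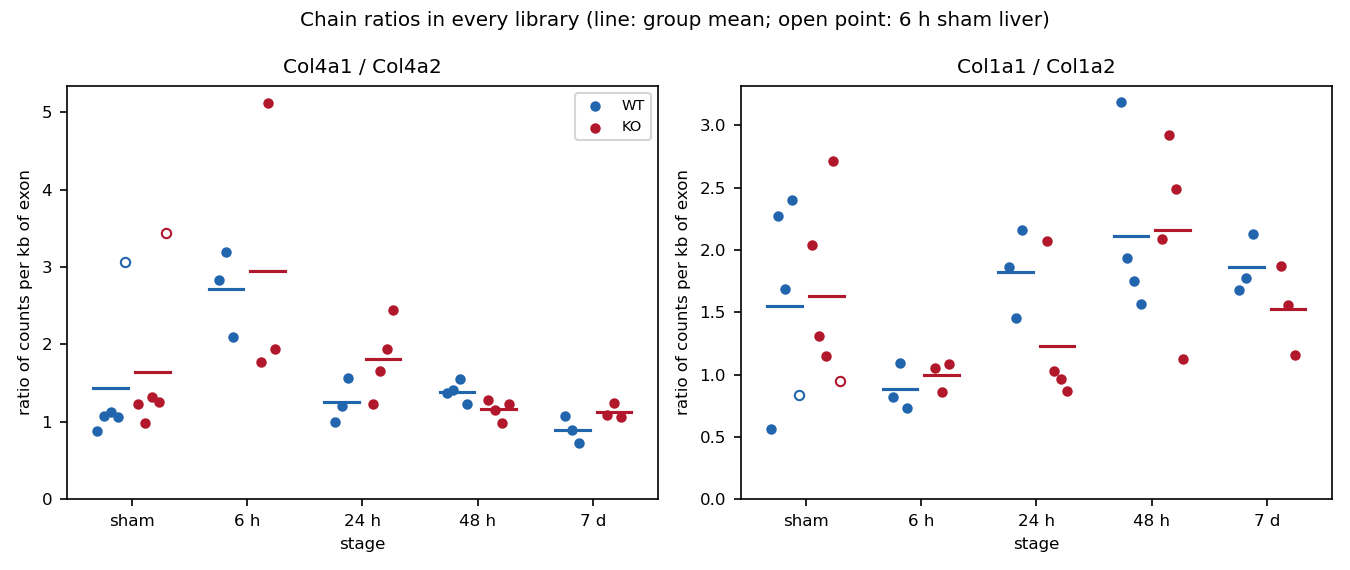
Ratio of Col4a1 to Col4a2 (left) and of Col1a1 to Col1a2 (right) in counts per kilobase of exon, in every library by stage, with lines at group means and open points for the 6 h sham livers. The Col4a1 to Col4a2 ratio lies at 1.77 or above in all 6 h livers, sham livers included, and at 1.32 or below in all other sham livers.

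Col4a5 (chrX:141475385-141689234, plus strand), a chain of the alternative type IV network, went the other way in KO livers at 24 h. KO sham livers had 1.93, 1.20, 1.99, 2.96 and 1.56 CPM and KO livers at 24 h had 1.02, 0.472, 0.577 and 2.13 CPM. The ranges overlapped and the fall was 2.11-fold (log2 change -1.08 ± 0.41 SE, edgeR adjusted p = 0.0497). Its call was kept in 20 of 37 fits that left out 1 library and under 3 of the 7 other alternatives. Among the fits that lost it were those without the 6 h sham livers (edgeR adjusted p = 0.056), with no sex term and of the compared groups alone. WT levels of Col4a5 were 2.54, 3.08, 2.15, 0.848 and 1.32 CPM after sham operation and 1.004, 2.17 and 0.407 CPM at 24 h, and these ranges overlapped too. Over the other stages after hepatectomy it lay between 0.486 and 2.31 CPM in WT and between 1.00002 and 1.97 CPM in KO livers. Col4a3 and Col4a4, the other chains of that network, had mean levels of 0.0863 and 0.165 CPM and were called in no comparison.

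Col13a1 (chr10:61838236-61979108, minus strand), the transmembrane chain, was called at 6 h in both genotypes and at 24 h in KO livers. WT sham livers had 3.97, 2.72, 4.30, 1.70 and 3.15 CPM and WT livers at 6 h had 8.55, 4.07 and 15.4 CPM. KO sham livers had 2.39, 2.30, 2.12, 3.15 and 5.38 CPM, KO livers at 6 h had 6.76, 9.61 and 7.20 CPM, and KO livers at 24 h had 3.34, 12.3, 15.3 and 11.8 CPM. One value fell inside the sham range in WT at 6 h and in KO at 24 h, the second being that of KO 24 h replicate 1. The changes were 2.84-fold in WT at 6 h (log2 change 1.51 ± 0.42 SE, edgeR adjusted p = 0.025), 2.52-fold in KO at 6 h (1.33 ± 0.41, adjusted p = 0.042) and 3.49-fold in KO at 24 h (1.81 ± 0.38, adjusted p = 0.00092). The KO call at 24 h was kept with each library left out. That at 6 h was kept in 33 of 37 such fits in WT, with an adjusted p of 0.30 without WT 6 h replicate 3, and in 18 of 37 in KO. WT livers at 24 h had 3.59, 8.03 and 6.13 CPM, of which replicates 2 and 3 lay above every WT sham liver, and their change (0.89 ± 0.40, adjusted p = 0.28) did not pass. Neither the KO to WT difference at 24 h (0.84 ± 0.43, adjusted p = 0.16) nor the interaction (0.92 ± 0.56, adjusted p = 0.29) passed, so the 24 h rise was not shown to differ between the genotypes. At 48 h WT livers had 5.29, 4.92, 3.85 and 2.42 CPM and KO livers 3.09, 3.29, 4.51 and 3.73 CPM. Levels at 7 d were 2.43, 1.15 and 1.72 CPM in WT and 2.24, 2.58 and 2.55 CPM in KO livers.

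Col20a1, a FACIT chain of low level, had 0.222, 0.297, 0.415, 0.407 and 0.373 CPM in WT sham livers and 0.962, 0.884 and 0.730 CPM at 6 h, with no overlap (log2 change 1.78 ± 0.54 SE, edgeR adjusted p = 0.038). KO livers at 6 h had 0.252, 1.80 and 0.350 CPM, and only replicate 2 lay above the KO sham livers. The WT call was kept in 21 of 37 fits that left out 1 library.

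Fibrillar chains gave 2 calls at the stages after hepatectomy, both falls and neither in type I or III. Col1a1 (chr11:94936224-94953042, plus strand) varied more between sham livers than between stages, with 3.38, 37.5, 9.54, 20.9 and 2.88 CPM in WT and 10.5, 5.09, 4.56, 25.5 and 3.89 CPM in KO sham livers. At 6 h it was 3.81, 4.38 and 3.25 CPM in WT and 5.33, 3.59 and 4.75 CPM in KO livers. These are the lower end of the sham ranges, at the level of the 6 h sham livers, and the WT change (-1.92 ± 0.77, edgeR adjusted p = 0.12) did not pass. The change became -2.42 (adjusted p = 0.020) without the 6 h sham livers and 0.26 (adjusted p = 0.91) among males alone. At 48 h Col1a1 was 20.8, 17.4, 10.9 and 8.66 CPM in WT and 11.9, 25.0, 15.2 and 3.43 CPM in KO livers. All of these lay within the sham range of their genotype except 3.43 CPM, just below it.

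Col3a1 also lay at the lower end of the sham range in WT livers at 6 h. Its levels were 22.8, 56.1, 28.0, 31.6 and 10.005 CPM in WT sham livers and 15.5, 13.3 and 13.1 CPM in WT livers at 6 h. The KO sham values were 19.3, 11.5, 15.6, 41.2 and 12.02 CPM and KO livers at 6 h had 22.1, 14.2 and 18.8 CPM. Again the 6 h sham liver had the lowest or almost the lowest value, and the changes at 6 h (WT -1.10 ± 0.46 SE, edgeR adjusted p = 0.13, KO -0.12 ± 0.42, adjusted p = 0.91) did not pass. Without the 6 h sham livers the WT change was -1.46 with an edgeR adjusted p of 0.017. It passed under 2 of the 7 alternatives other than leaving out single libraries, that one included. Levels of Col1a2 were 11.4, 31.3, 10.7, 16.5 and 6.51 CPM in WT and 9.75, 7.36, 7.50, 17.8 and 7.74 CPM in KO sham livers. Over the 4 stages after hepatectomy Col1a2 stayed between 4.68 and 17.0 CPM in WT and between 5.78 and 16.2 CPM in KO livers, with no call. The type V chain Col5a2 lay between 0.764 and 7.66 CPM over all libraries, and its largest change, at 48 h in KO livers (4.07, 4.04, 2.72 and 3.65 CPM against 1.77, 1.32, 1.27, 3.26 and 0.764 CPM in sham livers), did not pass (1.12 ± 0.39, adjusted p = 0.13).

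The type XXVII chain Col27a1 (chr4:63214004-63334991, plus strand) fell in WT livers at 48 h. Its levels were 8.09, 4.55, 2.05, 5.12 and 5.26 CPM in WT sham livers and 2.19, 1.59, 1.93 and 3.10 CPM at 48 h. All 48 h values lay below all sham values except that of WT sham replicate 3 (log2 change -1.22 ± 0.37 SE, edgeR adjusted p = 0.038). The call was lost in 6 of 37 fits that left out 1 library, among them all that dropped WT 48 h replicate 1, 2 or 3, and with no sex term (adjusted p = 0.066). It was also lost among males alone and in the compared groups alone, with an edgeR adjusted p of up to 0.28. At 7 d it was 5.58, 20.96 and 5.34 CPM in WT and 11.7, 8.61 and 15.7 CPM in KO livers, the KO values lying above all KO sham values of 5.18, 4.57, 6.28, 6.68 and 3.92 CPM. That difference had an unadjusted p of 0.0020 and an adjusted p of 1, in a comparison in which no gene passed. At 24 h Col27a1 had 6.58, 2.67 and 7.79 CPM in WT and 5.20, 6.02, 7.41 and 2.13 CPM in KO livers, and at 48 h KO livers had 3.26, 2.45, 4.30 and 4.17 CPM, with no call in these groups.

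Col5a3 (chr9:20770050-20815067, minus strand), a type V chain, fell in KO livers at 24 h and was the chain most clearly tied to sex. After sham operation KO livers had 10.8, 5.15, 5.66, 12.8 and 5.73 CPM and KO livers at 24 h had 3.66, 1.95, 5.90 and 0.627 CPM. The ranges overlapped only in replicate 3 (log2 change -1.29 ± 0.44 SE, edgeR adjusted p = 0.029), and the call was kept in 32 of 37 fits that left out 1 library. Of the 7 other alternatives 4 kept it, with an edgeR adjusted p of up to 0.11. Among the fits that lost it were those with no sex term and of the compared groups alone, which called 0 collagen or lysyl oxidase genes lower. In WT livers it stood at 9.96, 3.42, 1.40, 4.34 and 5.77 CPM after sham operation and at 10.2, 1.47 and 9.24 CPM at 24 h, with overlapping ranges and no call. Over all groups the 23 male livers had a median of 8.20 CPM (range 1.95 to 15.95) and the 14 female livers one of 3.54 CPM (range 0.627 to 8.01). The sex difference was 2.36-fold (log2 change, male against female, 1.24 ± 0.25, adjusted p = 0.0018) and was kept with each library left out. The type VI chain Col6a6, of low level, was also higher in males, at a median of 0.384 against 0.168 CPM (1.41 ± 0.37, adjusted p = 0.023). These were the 2 genes of 32 called between the sexes, where 3.59% of all genes were called.

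The other type VI chains gave no call. Col6a1 was 6.78, 15.5, 8.03, 10.007 and 4.78 CPM in WT sham livers and 4.14, 5.08 and 2.96 CPM in WT livers at 6 h. After sham operation KO livers had 5.93, 7.97, 5.48, 6.76 and 6.22 CPM and KO livers at 6 h had 6.47, 6.05 and 7.45 CPM. The 6 h sham liver of WT was again the lowest of its group, and the change in WT (-0.90 ± 0.32 SE, edgeR adjusted p = 0.074) became -1.08 with an adjusted p of 0.021 without the 6 h sham livers. It passed under 3 of the 7 alternatives other than leaving out single libraries, that one included. Col6a2 gave -1.10 ± 0.38 (edgeR adjusted p = 0.070) with the 6 h sham livers included.

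Col14a1 (chr15:55307750-55520803, plus strand), the FACIT chain of type XIV, fell in WT livers at 24 h and 48 h. WT sham livers had 45.8, 35.5, 25.2, 25.3 and 28.8 CPM, WT livers at 24 h had 13.0, 24.4 and 9.69 CPM and WT livers at 48 h had 15.9, 18.8, 12.6 and 22.8 CPM. Neither group overlapped the sham livers, though the highest 24 h value lay close to the lowest sham value. Its fall at 24 h was 2.05-fold (log2 change -1.04 ± 0.25 SE, edgeR adjusted p = 0.037), the only call among the 32 genes, where 0.925% of all genes were called. Without WT 24 h replicate 3, the liver with the high mitochondrial share, it was -0.76 with an adjusted p of 0.44, and without WT sham replicate 1, 2 or 4 or WT 24 h replicate 1 the adjusted p was 0.051 to 0.11. In the compared groups alone the 24 h call was lost too (adjusted p = 0.47). At 48 h the fall was 1.84-fold (-0.88 ± 0.22, adjusted p = 0.011), lost without WT sham replicate 1 (adjusted p = 0.055). The 48 h call was also lost among males alone and in the compared groups alone, and kept under 5 of the 7 alternatives of that kind (adjusted p up to 0.14). At 6 h (35.4, 37.1 and 36.8 CPM) and 7 d (32.7, 33.5 and 23.0 CPM) WT levels lay near sham levels.

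In KO livers Col14a1 was not called. Sham livers had 25.7, 24.3, 26.4, 24.9 and 28.3 CPM. At 24 h the KO livers had 17.7, 19.2, 29.2 and 26.2 CPM, and at 48 h they had 21.4, 15.7, 20.2 and 18.1 CPM. The 48 h livers all lay below the sham livers, but the change (-0.47 ± 0.22 SE, edgeR adjusted p = 0.35) did not pass, and the interaction at 24 h (0.87 ± 0.32, adjusted p = 0.082) did not pass either. Col12a1 and Col14a1, both FACIT chains, thus moved in opposite directions in WT livers at 48 h.

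Col15a1 (chr4:47208161-47313167, plus strand), the second multiplexin chain, varied with 1 library. WT livers had 9.76, 7.18, 11.1, 15.3 and 4.00 CPM after sham operation and 2.70, 2.34 and 1.66 CPM at 6 h, below every sham value but close to the 6 h sham liver at 4.00 CPM (log2 change -1.76 ± 0.80 SE, edgeR adjusted p = 0.17). KO sham livers had 14.7, 15.1, 14.1, 15.2 and 4.41 CPM, and KO livers at 24 h had 15.7 CPM in replicate 1 and 0.945, 0.799 and 0.376 CPM in the others. With all libraries the KO change at 24 h was -1.72 ± 0.70 (adjusted p = 0.062). Without KO 24 h replicate 1 it was -4.14 (adjusted p = 7.7e-06), the difference from WT at 24 h went from -1.59 (adjusted p = 0.14) to -3.95 (adjusted p = 3.5e-05), and the interaction from -2.14 (adjusted p = 0.17) to -4.39 (adjusted p = 0.00019). Col15a1 and the lysyl oxidase Loxl4 were the genes for which that liver decided most.

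Among the lysyl oxidases, Loxl4 (chr19:42593982-42612813, minus strand) made the largest change. WT sham livers had 0.887, 0.786, 0.700, 0.611 and 0.237 CPM, WT livers at 24 h had 3.88, 2.78 and 4.35 CPM and WT livers at 48 h had 25.1, 4.13, 4.02 and 6.56 CPM. All livers of both stages lay above all sham livers, and by 7 d levels were 0.191, 0.333 and 0.302 CPM. At 6 h WT livers had 1.07, 0.752 and 1.10 CPM, in part within the sham range. At 48 h the rise was 16.7-fold (log2 change 4.07 ± 0.78 SE, edgeR adjusted p = 0.0019). Leaving out each library in turn gave 2.97 to 4.45, with every adjusted p at or under 0.0108, although replicate 1 had several times the level of the others. At 24 h the change of 2.62 ± 0.79 (adjusted p = 0.096) did not pass in edgeR and passed in DESeq2 (2.63, adjusted p = 0.031).

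KO livers had Loxl4 levels of 0.859, 2.73, 1.82, 1.45 and 0.313 CPM after sham operation. At 24 h these were 17.1, 1.03, 0.399 and 0.502 CPM, and at 48 h they were 1.44, 0.998, 1.07 and 0.899 CPM. At 6 h KO livers had 1.13, 0.539 and 0.550 CPM, and those of 7 d had 0.444, 0.613 and 0.322 CPM. Of the KO livers at 24 h and 48 h, replicate 1 at 24 h was the one that reached the level of WT livers at those stages. At 48 h every KO liver lay below every WT liver, with a difference of -3.17 ± 0.80 SE (edgeR adjusted p = 0.080) and an interaction of -4.32 ± 1.05 (adjusted p = 0.17). DESeq2 called both (adjusted p = 0.0045 and 0.0088). Without KO 24 h replicate 1, edgeR called both as well (-3.17, adjusted p = 0.0025 and -4.30, adjusted p = 0.015). At 24 h the KO to WT difference was 0.16 ± 0.85 (adjusted p = 0.91) with that liver and -2.48 (adjusted p = 0.0030) without it.

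Lox and Loxl1 rose in KO livers at 24 h. Loxl1 (chr9:58287738-58313186, minus strand) had 1.26, 1.20, 0.822, 1.64 and 1.35 CPM in KO sham livers and 1.83, 2.83, 4.26 and 2.72 CPM at 24 h, without overlap (2.30-fold, log2 change 1.20 ± 0.41 SE, edgeR adjusted p = 0.030). WT livers had 1.13, 3.25, 2.10, 3.12 and 0.644 CPM after sham operation and 0.660, 2.22 and 1.91 CPM at 24 h, and the interaction (1.53 ± 0.63, adjusted p = 0.11) did not pass. Lox itself, on chromosome 18, had 0.0805, 0.123, 0.174, 0.753 and 0 CPM in KO sham livers and 0.246, 0.915, 0.843 and 1.92 CPM at 24 h. These rest on 0 to 39 and 7 to 46 counts per library, and a count of 0 in KO sham replicate 5 allows up to 0.104 CPM. The rise of 1.90 ± 0.71 (adjusted p = 0.046) was kept in 11 of 37 fits that left out 1 library. Both calls fell away among males alone, with adjusted p of 0.064 for Loxl1 and 0.31 for Lox.

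Loxl2 (chr14:69609068-69695834, plus strand), which also deaminates lysines of other proteins, was not called at any stage. WT sham livers had 4.78, 6.23, 3.01, 5.09 and 1.73 CPM, and KO sham livers had 2.20, 2.24, 2.49, 3.86 and 1.42 CPM. At 24 h WT livers had 2.38, 9.03 and 6.31 CPM and KO livers 3.41, 2.57, 2.66 and 3.09 CPM. KO livers were lower over the stages on average (-0.55 ± 0.17 SE, edgeR adjusted p = 0.069), which passed in DESeq2 (-0.55, adjusted p = 0.029) and not in edgeR. Loxl3 had a mean of 1.04 CPM and no call.

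KO livers at 24 h gave the most calls, 6 genes higher (Col4a1, Col4a2, Col12a1, Col13a1, Lox and Loxl1) and 2 lower (Col5a3 and Col4a5) of 32, in a comparison that called 27.9% of all genes. The 8 of 32 are therefore close to the background share. The 27 chains had a median log2 change of -0.33, the 5 lysyl oxidases one of 1.20 and all genes one of -0.01. Without KO 24 h replicate 1 the log2 changes were 1.73 for Col4a1, 1.38 for Col4a2, 1.94 for Col12a1, 2.10 for Col13a1, 2.22 for Lox, 1.38 for Loxl1 and -1.84 for Col5a3, each still called, while Col4a5 (-1.02, adjusted p = 0.074) was not. Without the 6 h sham livers Lox was not called either (1.65, adjusted p = 0.075). Without KO 24 h replicate 1 there were 11 calls in all, where 39.6% of all genes were called, and in the fit of the compared groups alone 4 of 26 tested, where 7.59% were called. At 48 h WT livers had 2 genes higher (Loxl4 and Col12a1) and 2 lower (Col14a1 and Col27a1), where 8.29% of all genes were called (4.68% rose and 3.62% fell). KO livers had 0 at 48 h, where edgeR called 3% of all genes, with 6 of the 32 at an unadjusted p under 0.05 and 0 in DESeq2. At 7 d edgeR called 0 of the 32 in both genotypes and 0% of all genes. DESeq2 called 0 of the 32 as well, beside 0.187% (WT) and 0.0386% (KO) of all genes. An unadjusted edgeR p under 0.05 was held by 4 (WT) and 1 (KO) of the 32, beside 950 and 497 of all genes.

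Between the genotypes, 1 of the 32 genes was called when the stages were averaged, where edgeR called 2.72% of all genes. Col4a2 was 1.51-fold lower in KO livers (log2 change -0.59 ± 0.15 SE, edgeR adjusted p = 0.024). In sham livers the ranges overlapped, 17.0 to 40.1 CPM in WT and 12.01 to 19.7 CPM in KO. At 48 h the WT values of 54.0, 33.7, 41.8 and 46.6 CPM lay above all KO values of 23.7, 27.3, 25.6 and 10.9 CPM (-1.15 ± 0.32, adjusted p = 0.11). At 7 d WT livers had 21.5, 34.1 and 66.0 CPM and KO livers 28.6, 20.7 and 18.6 CPM. The averaged call was lost without WT 24 h replicate 2 (adjusted p = 0.059) or WT 7 d replicate 3 (adjusted p = 0.074). Col4a1 averaged -0.40 ± 0.17 (adjusted p = 0.20), Col18a1 -0.29 ± 0.14 (adjusted p = 0.23) and Col5a2 -0.47 ± 0.20 (adjusted p = 0.18), none of which passed.

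At single stages edgeR called 0 of the 32 genes between KO and WT. The shares of all genes called were 0.276% in sham livers, 0.116% at 6 h, 18.6% at 24 h, 0.341% at 48 h and 0.045% at 7 d. Of these, 0.0578% were higher and 0.0578% lower in KO livers at 6 h, and 0.0257% higher and 0.0193% lower at 7 d. In the same order 3, 2, 5, 4 and 0 of the 32 had an unadjusted p under 0.05, and DESeq2 called 0, 0, 3, 3 and 0, beside 1.84%, 0.843%, 22.6%, 1.44% and 0.18% of all genes. The interaction called 0 of the 32 at each stage, with 0%, 8.47% (5.51% higher and 2.96% lower), 0% and 0% of all genes at 6 h, 24 h, 48 h and 7 d. Of the 32, 3, 5, 2 and 0 had an unadjusted edgeR p under 0.05, beside 714, 4193, 1199 and 347 of all genes. DESeq2 called 0, 0, 1 and 0 of them, beside 0.0515%, 13.6%, 0.328% and 0.0193% of all genes. Without KO 24 h replicate 1 the difference at 24 h called 8 of the 32 and the interaction 5, in fits that called 35% and 23.5% of all genes. Comparisons of KO with WT and the interactions share libraries with the stage comparisons, so their values stand side by side and are not independent.

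**Figure D4:**
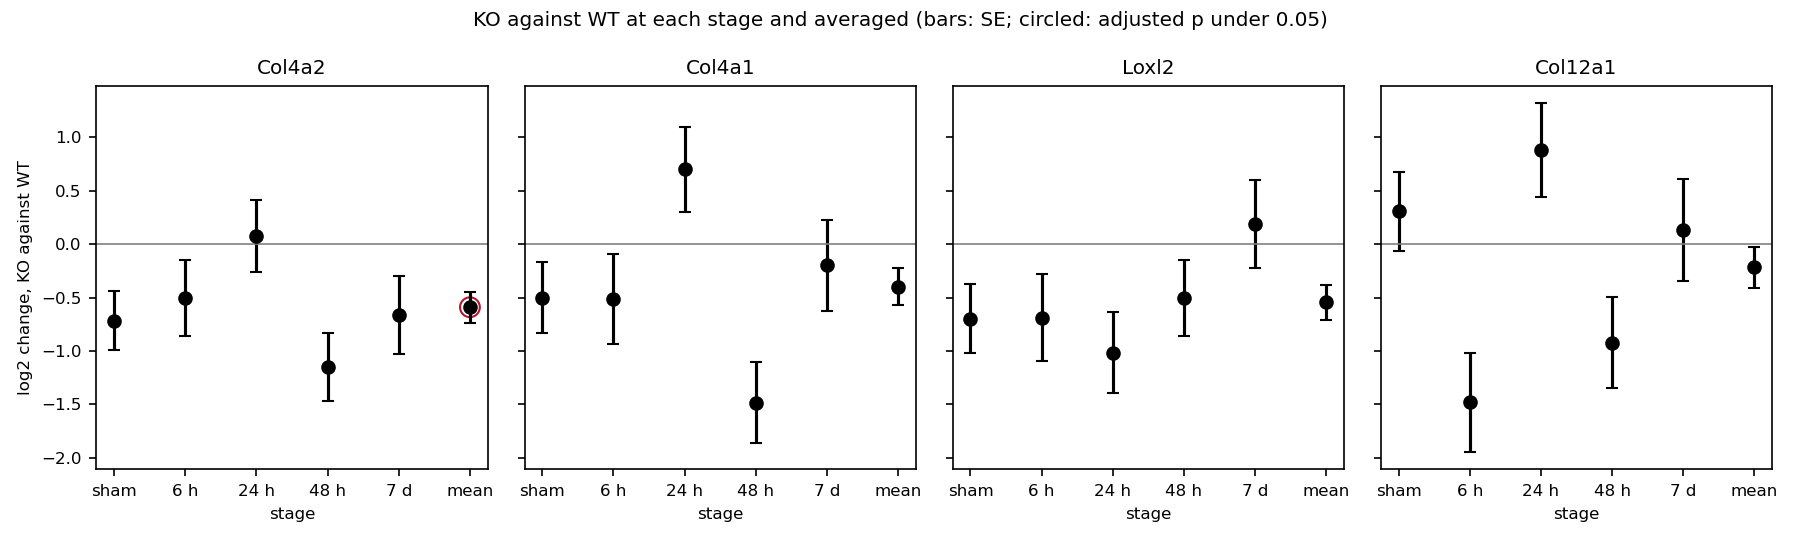
Log2 change of KO against WT livers for 4 genes at each stage and averaged over the 5 stages, with bars of 1 SE and a red circle around the value with an adjusted p under 0.05. Col4a2 lies below 0 at each stage but 24 h, and its averaged value (-0.59 ± 0.15) is the 1 circled value.

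Enzymes that modify, fold and trim collagen (25 genes, 22 tested) gave 0 calls at 6 h in WT livers in edgeR, where 7.86% of all genes were called. Of the 22, 3 had an unadjusted p under 0.05, beside 3838 of all 15564 genes, and their median log2 change was -0.11. In KO livers at 6 h Adamts14, which removes the amino-terminal propeptide, rose (1.85 ± 0.41 SE, adjusted p = 0.0060) and P4ha1, a prolyl hydroxylase subunit, fell (-1.43 ± 0.39, adjusted p = 0.025). That is 1 higher and 1 lower of 22, where 6.62% of all genes were called. Adamts14 also rose in WT livers at 48 h (1.71 ± 0.38, adjusted p = 0.0046), the 1 of 22 called there, where 8.29% of all genes were called. At 24 h in KO livers P3h1, a prolyl 3-hydroxylase, and Adamts2 rose (1.44 ± 0.26 and 0.80 ± 0.24), and P4ha1 and Mia3, which helps export procollagen, fell (-1.19 ± 0.35 and -0.84 ± 0.23). That is 2 higher and 2 lower of 22, where 27.9% of all genes were called (15.9% rose and 12% fell), so these calls did not exceed the background share. Against WT livers at 24 h, P3h1 was higher (1.12 ± 0.31) and Colgalt1, Colgalt2, Pcolce2 and the collagen chaperone Serpinh1 were lower in KO livers. That is 1 higher and 4 lower of 22, where 18.6% of all genes were called (11.1% higher and 7.5% lower). Averaged over the stages, Serpinh1 (-0.66 ± 0.16, adjusted p = 0.022) and Colgalt2 (-1.10 ± 0.30, adjusted p = 0.045) were lower in KO livers, and the list's median was -0.17 beside 0.0043 over all genes. These were 2 of 22, where 2.72% of all genes were called.

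Of 15 collagen receptors and fibril-binding proteins (14 tested), the integrin subunit Itga2 rose at 6 h in WT (3.31 ± 0.89 SE, edgeR adjusted p = 0.020) and KO livers (3.90 ± 0.88, adjusted p = 0.0070), the 1 gene of the list called there in each. Of all genes 7.86% (WT) and 6.62% (KO) were called. In KO livers at 24 h Itga1 (-0.58 ± 0.20, adjusted p = 0.033) and the collagen-binding receptor Lair1 (-1.49 ± 0.47, adjusted p = 0.017) fell. These were 2 of 14, where 27.9% of all genes were called. Fibromodulin, Fmod, fell in WT livers at 24 h (-2.30 ± 0.58, adjusted p = 0.048). Against WT livers at 24 h, KO livers were higher for Fmod (1.70, adjusted p = 0.043) and lower for Lair1 (-1.44, adjusted p = 0.047), and the interaction at 24 h was called for Fmod (2.53, adjusted p = 0.034) and, among the modifying enzymes, for P3h1 (1.299, adjusted p = 0.038). Decorin, Dcn, was higher in KO livers averaged over the stages (0.58 ± 0.15, adjusted p = 0.033).

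Markers of the cells that make collagen are given beside these results. Of all genes 7.86% (WT) and 6.62% (KO) were called at 6 h, and 0.925% and 8.29% in WT livers at 24 h and 48 h. Of 6 myofibroblast markers, Tagln (2.08 and 1.57) and Pdgfra (1.47 and 1.79) rose at 6 h in WT and KO livers, and their summed level was 46.0 to 56.6 CPM at 6 h against 13.1 to 28.1 CPM in WT sham livers, and 29.2 to 48.9 against 8.77 to 18.2 CPM in KO livers. Sox9, of the cholangiocyte list, rose at 6 h in WT livers (3.20). Of the 5 genes of that list 2 were above 0, and the list's median log2 change was -0.35. Of 10 quiescent stellate markers 0 rose and 1 (Lhx2) fell at 6 h in WT, and 0 were called in KO livers. Their summed level was 90.4 to 108 CPM at 6 h and 81.0 to 165 CPM after sham operation in WT livers. Portal fibroblast markers summed to 4.77 to 4.91 CPM at 6 h and 4.24 to 13.3 CPM in WT sham livers, none of 6 tested being called. In WT livers the stellate marker Colec11 fell at 24 h (-0.93 ± 0.22, adjusted p = 0.039) and 48 h (-0.97 ± 0.20, adjusted p = 0.0032), the stages at which Col14a1 fell, and it was the 1 of 10 stellate markers called at each. At each of these stages 5 of the 10 stellate markers were above 0, with a median of 0.07 at 24 h and -0.04 at 48 h. Also at 48 h in WT livers Marco rose (1.83) and Stab2 (-1.15), Serpina1c (-1.10) and Cps1 (-1.05) fell. Marco was the 1 of 5 Kupffer cell markers above 0, and that list's median was -0.49. Of 7 endothelial markers 0 were above 0, and of 5 hepatocyte transcripts 1 was.

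At 24 h in KO livers, beside the 8 calls there, 1 of 6 myofibroblast markers rose (Pdgfra, 1.85 ± 0.38 SE, edgeR adjusted p = 0.00082), and 1 of 10 stellate markers (Lhx2, -0.93 ± 0.31, adjusted p = 0.024) and 1 of 6 tested portal fibroblast markers (Thy1, -1.16 ± 0.35, adjusted p = 0.014) fell. The myofibroblast list summed to 16.5 to 31.3 against 8.77 to 18.2 CPM in sham livers. These ranges overlapped through KO 24 h replicate 1 alone (16.5 CPM). Every other KO liver at 24 h lay above all KO sham livers. The stellate list summed to 76.7 to 124 against 87.4 to 163 CPM, and the portal fibroblast list to 5.41 to 9.31 against 5.43 to 7.25 CPM. For these lists the ranges overlapped with or without that replicate. Of 7 sinusoidal endothelial markers 6 fell in KO livers at 24 h (among them Clec4g, -1.95, Kdr, -2.17, and Fcgr2b, -1.60), and Lyve1 rose. Their sum was 44.3 to 66.2 against 79.4 to 152 CPM in sham livers. Of 5 Kupffer cell markers 4 fell (Clec4f, Vsig4, Timd4 and Cd5l, -1.76 to -1.50), with a sum of 45.5 to 228 against 177 to 268 CPM. The value of 228 CPM was that of KO 24 h replicate 1, and every other KO liver at 24 h lay below all KO sham livers. Sox9 rose in KO livers at 24 h as well (2.75). That comparison called 27.9% of all genes. Between KO and WT livers at 24 h, where 18.6% of all genes were called, Des, a stellate marker, was lower (-3.01 ± 0.68, adjusted p = 0.0048), as were 6 of 7 endothelial markers (Clec4g, Gpr182 and Kdr by the smallest p) and Cd5l and Vsig4, while Alb, Sox9 and Epcam were higher. Des was also lower in KO livers averaged over the stages (-1.05 ± 0.29, adjusted p = 0.045), the comparison that called Col4a2, and was the 1 of 10 stellate markers called in it. Of these 10 markers 6 were above 0, with a median of 0.02, and 2.72% of all genes were called. Over all libraries Des ranged from 3.25 to 85.6 CPM around a mean of 9.15 CPM, and whether single libraries carry its calls was not tested. The interaction at 24 h called Clec4g (-1.94), Krt19 (2.67), Sox9 (3.595), Epcam (2.73) and the mesothelial marker Msln (2.48), and Krt19 was lower in KO than in WT sham livers (-2.31). Krt19 was the 1 of 5 cholangiocyte markers called between the sham groups, where 0.276% of all genes were called. Of these 5 markers 2 were above 0, with a median of -0.74. Between the sexes, Marco (-1.47) and Thy1 (-0.72) were lower and Serpina1c (0.66) higher in males. Of the myofibroblast, stellate, portal fibroblast, endothelial and Kupffer lists, Cnn1 had no count in 6 libraries, Gli1 in 11 and Clec3b in 1, and no other marker was at 0 in any library. Whether these shifts take part in the changes of the chains was not tested.

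Among the 14 genes too low to be tested, Col9a2, chosen after its values were seen, had 0, 2.13, 0.932 and 0.125 CPM in KO livers at 24 h (0, 72, 21 and 3 counts) and at most 0.126 CPM in any other library. Col2a1 and Col10a1 had 1 count each over all libraries and Col11a1 had 7. The remaining 10 had 14 to 136 counts in all.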

How the data were processed

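Liver RNA was measured in 37 libraries made with a stranded mRNA kit, per the labels' protocols. The deposited values are whole numbers per gene, taken to be expected counts (rounded estimated counts) since RSEM 1.3.0 is named beside STAR 2.5.3a and GRCm38, per the submitters' processing notes. The strand setting, annotation release and filters are not given in the sources used here, so genes that overlap on opposite strands, such as Col4a1 and Col4a2 at their starts, have less certain values. Positions and exon lengths came from GENCODE M21 (GRCm38), in which 55227 identifiers matched, and promoters from RefSeq.

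The expected counts were tested in edgeR 4.0.16 (R 4.3.3) in 1 robust quasi-likelihood fit of all 37 libraries with 10 groups and sex, after filterByExpr (15564 genes) and TMM scaling. Each of 19 comparisons had its p-values adjusted by Benjamini-Hochberg across those 15564 genes, and 0.05 was the threshold. SE is that of the log2 change. CPM values use TMM-scaled library sizes, and total counts were 26232544 to 48827025 per library. The labels do not name the animals, so p-values measure the spread between these samples. The replicate pair most alike had a chi-square of 32.07 for each degree of freedom, so none was treated as a duplicate.

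The genes and the lists of related genes and markers were chosen with earlier results of these data known. Values library by library are given for a fixed panel (Col1a1, Col1a2, Col3a1, Col4a1, Col4a2, Col5a2, Col6a1, Col14a1, Col18a1, Lox, Loxl1 and Loxl2) and for genes called in any comparison whose higher group averaged 1 CPM or more, at the stages a comparison turned on, and not at every other stage. Genes outside that rule (Col15a1, Col20a1, Col6a6, Col6a2 and Col9a2) were named after their values were seen. Genes of the other lists are named where past the threshold, the 3 of smallest p per list and comparison, and the further called genes given beside them were chosen after their values were seen. The alternatives were RLE scaling, no filter beyond 1 count, no sex term, leaving out the 6 h sham livers, male libraries alone, the compared groups alone, DESeq2 1.42.0 and leaving out each library. The procedure was tested on simulated counts. Figures were drawn with matplotlib 3.10.9.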

Additional observations from a re-analysis of the deposited data

Results flagged for a closer look

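In groups of 4 or 5 livers, the highest or lowest value of a gene was set against the others by Dixon's test, for the 18 genes given library by library. Of 90 groups checked, 10 held such a value, and chance gives about 1 in 20. The 6 h sham livers gave 2 of them, Col12a1 at 1.90 CPM in WT sham replicate 5 (the others 0.577 to 0.933) and Col4a1 at 64.9 CPM in KO sham replicate 5 (17.9 to 27.8). KO sham replicate 4, taken at 72 h, gave 3 high values, Col1a2 at 17.8 CPM (7.36 to 9.75), Col3a1 at 41.2 CPM (11.5 to 19.3) and Lox at 0.753 CPM (0 to 0.174). KO 24 h replicate 1 was low for Col4a1 at 37.5 CPM (92.3 to 103) and high for Loxl4 at 17.1 CPM (0.399 to 1.03). Loxl4 stood at 25.1 CPM in WT 48 h replicate 1 (4.02 to 6.56), Loxl2 at 5.84 CPM in KO 48 h replicate 2 (3.596 to 3.82) and Col5a3 at 2.73 CPM in WT 48 h replicate 3 (8.01 to 8.16).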

How the results depend on the processing

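Of 24 calls (13 genes), 10 were kept with every library left out in turn and 7 under every alternative. RLE scaling kept 23 of 24, no filter 22 of 24, no sex term 18 of 22, leaving out the 6 h sham livers 21 of 24, males alone 10 of 21, the compared groups alone 6 of 21 and DESeq2 24 of 24. No called value changed direction. Counts of called genes that moved are given with the share of all genes called in the same fit in brackets, which moved as well. WT at 6 h (4 called, 7.86%) gave 8 (18.9%) without the 6 h sham livers, 1 (0.11%) among males, 0 (0.0073%) in the compared groups alone and 7 (11.3%) in DESeq2. WT at 24 h (1, 0.925%) gave 4 (4.05%) with no filter, 0 (0%) in the compared groups alone and 2 (3.11%) in DESeq2. WT at 48 h (4, 8.29%) gave 1 (1.84%) among males and 1 (2.71%) in the compared groups alone. KO at 6 h (4, 6.62%) gave 2 (2.32%) and 1 (1.91%) in these. KO at 24 h (8, 27.9%) gave 13 (15.3%) with no filter and 4 (7.59%) in the compared groups alone. With no filter KO at 48 h (0, 3%) gave 1 (2.82%) and KO at 7 d (0, 0%) gave 2 (0.529%). KO against WT at 24 h (0, 18.6%) gave 4 (11.7%) with no filter, 5 (15.1%) among males, 2 (20%) without the 6 h sham livers and 3 (22.6%) in DESeq2. At 48 h (0, 0.341%) these were 3 (2.12%), 1 (0.104%), 1 (0.431%) and 3 (1.44%). The interaction at 24 h (0, 8.47%) gave 4 (8.05%) with no filter and 3 (6.16%) among males, and at 48 h (0, 0%) 1 (1.37%) with no filter and 1 (0.328%) in DESeq2. The averaged genotype difference (1, 2.72%) gave 3 (4.98%) with no filter, 2 (5.56%) in DESeq2 and 2 (2.92%) without the 6 h sham livers.

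Leaving out each library gave 1 to 8 in WT at 6 h, 0 to 2 in WT at 24 h, 2 to 5 in WT at 48 h, 2 to 4 in KO at 6 h, 5 to 11 in KO at 24 h and 0 to 2 in KO at 48 h. It gave 0 to 8 for KO against WT at 24 h, 0 to 2 at 48 h, 0 to 5 and 0 to 1 for the interactions at 24 h and 48 h, 0 to 3 for the average and 1 to 4 between the sexes. The 8 in WT at 6 h came without WT sham replicate 5 (17.4% of all genes called), and the 8 and 5 at 24 h without KO 24 h replicate 1 (35% and 23.5%). WT at 24 h gave 0 without WT sham replicate 1, 2 or 4 or WT 24 h replicate 1 or 3. The average gave 0 without WT 24 h replicate 2 or WT 7 d replicate 3.

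Values of uncalled genes that changed direction were these. Col1a1 in WT at 6 h was 0.26 among males and 0.27 in the compared groups alone. With each library left out, Col3a1 in KO at 6 h ranged from -0.28 to 0.32 (without KO sham replicate 4) and was 0.031 without KO 6 h replicate 2. Loxl4 in KO at 24 h ranged from -1.19 (without KO 24 h replicate 1) to 2.08 and was -0.35 among males, and in KO at 48 h from -0.54 to 0.0089 (without KO sham replicate 2), with 0.38 among males. Loxl4 between KO and WT at 24 h ranged from -2.48 (without KO 24 h replicate 1) to 0.70, with -0.22 without WT 24 h replicate 2, -5.5e-05 without WT 48 h replicate 3, -2.53 among males and -1.27 in the compared groups alone. Their cause was not tested. Males alone could not be fitted for KO at 7 d, the average or the sexes, nor the compared groups alone for the average and the sexes. No paired analysis was possible because replicate numbers follow accession order only. Groups of 3 to 5 livers and low counts (under 50 per library for Lox) limit what could be detected.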
